A study of Mus musculus with 2 samples.

Results

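The 10 genes described here encode the core of the transforming growth factor beta (TGF-beta) pathway: the ligand Tgfb1, its presenting protein Lrrc33, the receptors Tgfbr1 and Tgfbr2, the signalling proteins Smad2, Smad3 and Smad4, and the inhibitors Smad7, Ski and Skil. They were picked out by gene symbol, with earlier results of these data known, and are 10 of the 27998 genes counted. A direct match found 9 of them, and Lrrc33 was found under Nrros, of which RefSeq gives Lrrc33 as a synonym. All 10 reached 20 unique molecular identifiers (UMIs, tags that count single RNA molecules) over both libraries, the minimum for a gene to be called measured. Their messenger RNA was counted in single spinal cord cells of mice with the alleles Cx3cr1-CreER::Rosa26-tdTomato on the C57BL/6J background, in 1 uninjured library from age-matched cord and 1 injured library from cord taken 5 days after lysolecithin, a lipid that strips myelin. All mice carried both alleles and received 4-hydroxytamoxifen in 2 injections of 1 mg at postnatal week 4, and cords were dissected 4 weeks later. Cre driven by Cx3cr1 then marks microglia and other resident macrophages with the red protein tdTomato, and tdTomato-positive cells were sorted. The numbers and the sex of the animals in each library are not given in the labels, and the injury and the preparation of each library cannot be told apart.

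TGF-beta is secreted in a latent form, in which the growth factor stays wrapped in its own propeptide. In microglia the latent complex is tethered to the cell surface by the Nrros protein and is freed by integrins. Free ligand binds the type II receptor Tgfbr2, which phosphorylates the type I receptor Tgfbr1. Tgfbr1 then phosphorylates Smad2 and Smad3, which enter the nucleus with Smad4. Smad7 acts at the receptor, and Ski and Skil repress Smad complexes on DNA. Microglia need this pathway to keep their resting gene programme.

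The promoters of the ligand, the presenting protein and the receptors are shown because these genes form the entry of the pathway and differed in how far they stood apart between the libraries. Each sequence is the 250 bases before the transcript start, from RefSeq (GRCm38.p6), read 5′ to 3′ on the gene's strand. Capitals mark the Smad box CAGAC, a short sequence that Smad3 and Smad4 can bind, searched on both strands. Tgfb1 is at chr7:25686752-25687001 on the plus strand, Nrros at chr16:32165595-32165844 on the minus strand, Tgfbr1 at chr4:47352972-47353221 on the plus strand and Tgfbr2 at chr9:116175364-116175613 on the minus strand.
Tgfb1: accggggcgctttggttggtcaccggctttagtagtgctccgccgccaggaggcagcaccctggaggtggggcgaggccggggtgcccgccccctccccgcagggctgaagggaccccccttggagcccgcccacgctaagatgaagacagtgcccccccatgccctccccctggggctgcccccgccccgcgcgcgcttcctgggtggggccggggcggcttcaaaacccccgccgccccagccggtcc
Nrros: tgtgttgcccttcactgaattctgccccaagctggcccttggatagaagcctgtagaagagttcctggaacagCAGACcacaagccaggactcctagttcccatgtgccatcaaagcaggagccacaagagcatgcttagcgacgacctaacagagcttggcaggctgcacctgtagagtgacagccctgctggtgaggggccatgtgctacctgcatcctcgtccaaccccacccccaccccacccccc
Tgfbr1: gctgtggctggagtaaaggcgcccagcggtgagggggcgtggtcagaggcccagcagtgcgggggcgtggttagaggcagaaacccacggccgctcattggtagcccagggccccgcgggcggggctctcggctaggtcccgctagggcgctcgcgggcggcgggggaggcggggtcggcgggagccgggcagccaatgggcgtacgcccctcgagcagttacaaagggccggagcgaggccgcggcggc
Tgfbr2: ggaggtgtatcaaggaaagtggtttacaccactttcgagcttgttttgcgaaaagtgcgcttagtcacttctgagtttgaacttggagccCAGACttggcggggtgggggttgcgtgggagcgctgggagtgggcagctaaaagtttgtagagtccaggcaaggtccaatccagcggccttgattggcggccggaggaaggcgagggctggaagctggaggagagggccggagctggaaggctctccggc
Nrros and Tgfbr2 each held 1 match in these windows, and Tgfb1 and Tgfbr1 held 0. Such a match is common: 42.2% of 32851 promoter windows of the same length held CAGAC. The Tgfb1 and Tgfbr1 windows were rich in G and C, at 75.2% and 74.8%, against 58.4% in both others. They held 21 and 29 CpG dinucleotides, against 3 in Nrros and 12 in Tgfbr2. None of the 4 windows held the palindromic Smad element GTCTAGAC (0.167% of all windows), the AP-1 element TGANTCA (6.75%) or the PU.1 element GAGGAAGT (2.44%), where AP-1 and PU.1 are transcription factors active in macrophages. A second Tgfbr1 window, at chr4:47385966-47386215, held 1 CAGAC match, 52.8% G and C and 3 CpG dinucleotides. The G and C content and CpG number of all windows were not computed. A match is a description of the letters and does not show binding.

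After filtering, 695 uninjured and 577 injured cells held 2093084 and 3095511 UMIs, with medians of 3003 and 4396 UMIs per cell. The libraries shared 0 cell barcodes. All 10 microglial markers were detected in both, and 682 and 547 cells lay in microglia-like clusters. The other 13 uninjured cells were 1.87% of the library, and the other 30 injured cells were 5.20%. Sex-linked RNA differed as well: Y-linked UMIs without Xist were seen in 235 uninjured and 147 injured cells, and Xist without Y-linked UMIs in 6 and 213. Both kinds were seen in 2 uninjured cells and in 17 injured cells, whose median depth was 6449 UMIs. Without these cells the Tgfb1 log2 ratio was −1.92, and the 2-fold counts of the members did not change. Genes of the early response to tissue dissociation, such as Jun and Hspa1a, summed to 22067 CPM in uninjured and 11008 CPM in injured cells, and the part of this difference in the results that follow was not tested. CPM is a gene's UMIs per 1000000 UMIs of the library.

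Tgfb1 was the only member at least 2-fold apart between the libraries, and it stood lower in injured cells. At the 2-fold limit 1 of the 10 members was lower, against 11.5% of 9066 measured genes, and 0 were higher, against 7.22%. At 1.5-fold, 4 members were lower (Tgfb1, Smad3, Tgfbr1 and Ski), against 25.9% of measured genes, and 0 were higher, against 14.4%. The median log2 ratio of injured over uninjured was −0.31 over the members and −0.15 over all measured genes, whose quartiles were −0.61 and 0.29. Scaling by TMM or DESeq2 factors raises every log2 ratio by 0.145 or 0.150, which leaves the 2-fold counts of the members at 1 lower and 0 higher. The 1.5-fold count then goes from 4 to 2 lower members, Tgfb1 and Smad3, since Tgfbr1 is at −0.48 with either scaling and Ski at −0.46 and −0.45. The Skil ratio, at −0.024 and −0.019, is then near 0. The 95% counting interval of the ratio lay below 0 for 4 members, Tgfb1, Tgfbr1, Ski and Skil, against 25.8% of measured genes, above 0 for 0 members, against 17.1%, and included 0 for 6. Each group is 1 library, so the differences lack a replicate check, the intervals cover counting error only and no p-value is given.

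**Figure D1:**
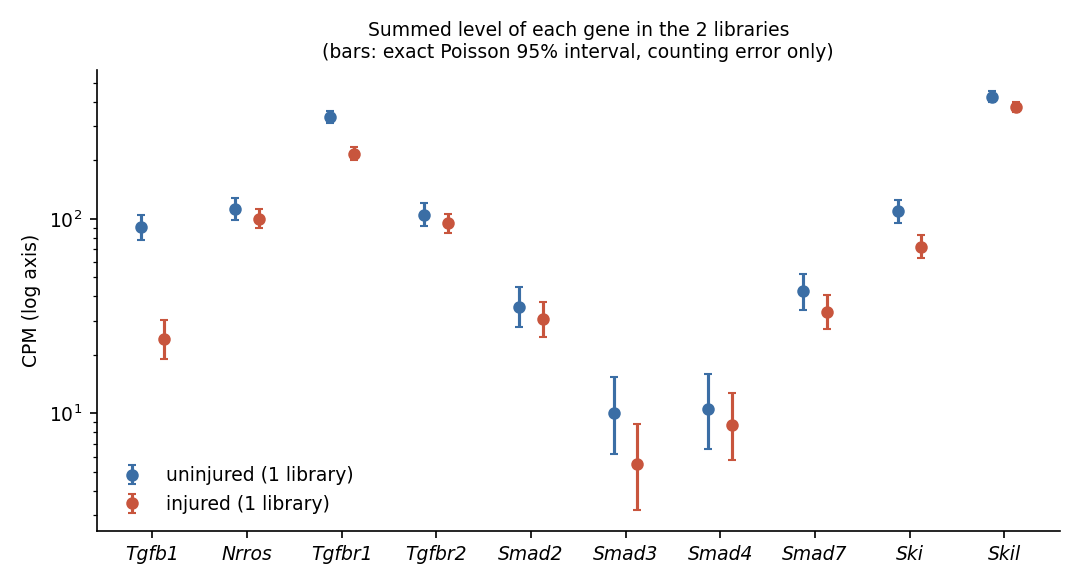
Level of each gene in CPM (log axis) in the uninjured and the injured library, with exact Poisson 95% intervals. The points of Tgfb1 lie at 90.3 and 24.2 CPM with intervals far apart, while the intervals of Nrros, Tgfbr2 and all 4 Smad genes overlap.

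Tgfb1 (ENSMUSG00000002603, chromosome 7 at 25687002 to 25705077) encodes the ligand. Uninjured cells held 189 of its UMIs and injured cells 75. These are levels of 90.3 CPM (95% interval 77.9 to 104) and 24.2 CPM (19.1 to 30.4), which do not overlap. The injured level was 3.73-fold lower, a log2 ratio of −1.90 (−2.30 to −1.50), and only 1.61% of measured genes had a lower ratio. The UMIs were spread thinly over cells. Among uninjured cells 122 held 1 UMI and 31 held 2 or more, up to 4 in a cell, and among injured cells 69 held 1 and 3 held 2. With every cell thinned to 1500 UMIs, 11.6% of 604 uninjured cells and 4.59% of 567 injured cells had a Tgfb1 UMI, a difference of −7.00 percentage points (−10.2 to −3.91). Thinned to 2500 UMIs, which keeps 462 and 514 cells, the shares were 21.6% and 7.39%, a difference of −14.3 points. Before thinning the shares were 22.0% and 12.5%. The lower level was also seen among cells with Y-linked UMIs alone, at 101 CPM (80.0 to 125) in uninjured and 24.5 CPM (14.9 to 37.8) in injured cells. Injured cells with Xist alone stood at 26.2 CPM, close to the injured cells with Y-linked UMIs. Among cells of 2000 to 5000 UMIs, a band chosen after the data were seen to bring depth closer, the levels were 98.9 and 33.7 CPM. Median depth in the band was 3265.5 UMIs in uninjured and 3605.5 UMIs in injured cells.

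Nrros (ENSMUSG00000052384, chromosome 16 at 32142785 to 32165594), which presents latent TGF-beta on microglia, had 236 and 310 UMIs. Its level was 113 CPM (98.8 to 128) in uninjured and 100.1 CPM (89.3 to 112) in injured cells, so the intervals overlapped. The log2 ratio was −0.17 (−0.42 to 0.08), close to the median of all genes. After thinning, 15.7% of uninjured and 14.3% of injured cells had a UMI. Lrrc32, which presents latent TGF-beta on other cell types, had 0 UMIs in both libraries.

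Of the 17 genes listed for latency, presentation and activation, 9 were measured, with a median log2 ratio of 0.13. At 2-fold 1 was higher and 0 lower, beside 7.22% and 11.5% of all measured genes. Itgav, the integrin alpha chain that activates latent TGF-beta, had 74 and 124 UMIs (log2 0.18, −0.25 to 0.62). Itgb1, a beta chain that can pair with it, had a log2 ratio of 0.13 (−0.16 to 0.43). Itgb5, another partner, stood lower, at 162 CPM in uninjured and 111 CPM in injured cells (log2 −0.54, −0.76 to −0.32). Itgb8, the beta chain known for activating TGF-beta in the brain, had 1 uninjured and 6 injured UMIs, and 4 of the 6 lay in the 8 non-microglial cells of cluster 12, described further on. Thbs1, a secreted protein that can activate the latent complex, was the gene past 2-fold, with 16 and 50 UMIs (log2 1.08, 0.24 to 1.99). Of the 50 injured Thbs1 UMIs, 9 lay in the macrophage cluster 10, also described further on, and 23 in the 10 cells with most. Plau, the urokinase plasminogen activator, had a log2 ratio of 0.76 (0.13 to 1.42).

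Other ligands of the family were scarce. Of 16 listed, 1 was measured, and 6 had 0 UMIs in both libraries. Tgfb2 had 0 uninjured and 3 injured UMIs, all 3 in cluster 12, and Tgfb3 had 1 and 0, so Tgfb1 was the only isoform of TGF-beta with more than 3 UMIs in either library. Gdf15, a stress-induced family member, had 61 and 105 UMIs (log2 0.22, −0.25 to 0.70). Of the 105 injured Gdf15 UMIs, 11 lay in cluster 10 and 51 in the 10 cells with most. Gdf3, named after its values were seen, had 0 uninjured and 19 injured UMIs and so fell 1 UMI short of being measured.

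Tgfbr1 (ENSMUSG00000007613, chromosome 4 at 47353222 to 47414931), the type I receptor, had 699 and 670 UMIs. Its level was 334 CPM (310 to 360) in uninjured and 216 CPM (200.4 to 233) in injured cells, without overlap, and the log2 ratio was −0.63 (−0.78 to −0.47). In thinned cells the share with a UMI was 38.4% and 31.2%, a difference of −7.19 points (−12.6 to −1.73). The unthinned shares went the other way, 59.4% and 63.4%, beside the deeper injured cells. The gap between the libraries varied with depth. Between 2000 and 5000 UMIs the levels were 336 CPM in uninjured and 309 CPM in injured cells, with overlapping intervals (309 to 365 and 277 to 343). Above 5000 UMIs they were 331 CPM in 37 uninjured cells and 164 CPM in 238 injured cells. Injured clusters 5, 8, 9 and 11, described further on, had median depths of 8268, 5402, 7208 and 6562 UMIs. Depth and kind of cell therefore cannot be told apart in these bands.

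Tgfbr2 (ENSMUSG00000032440, chromosome 9 at 116084293 to 116175360), the type II receptor, had 220 and 293 UMIs. The levels of 105 CPM (91.7 to 120) and 94.7 CPM (84.1 to 106) overlapped, and the log2 ratio was −0.15 (−0.41 to 0.11), the median of all genes. Thinned shares were 14.7% and 12.2%. Over all cells the interval of the Tgfbr1 ratio lay below that of Tgfbr2 without overlap, but the order turned in thinned cells and in the depth band. Thinned cells gave −0.30 for Tgfbr1 and −0.33 for Tgfbr2, and cells of 2000 to 5000 UMIs gave −0.12 and −0.30. In thinned cells 48.5% of uninjured and 39.0% of injured cells had a UMI of either receptor, and 4.64% and 4.41% had a UMI of both. The product of the separate shares is 5.66% and 3.80%.

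**Figure D2:**
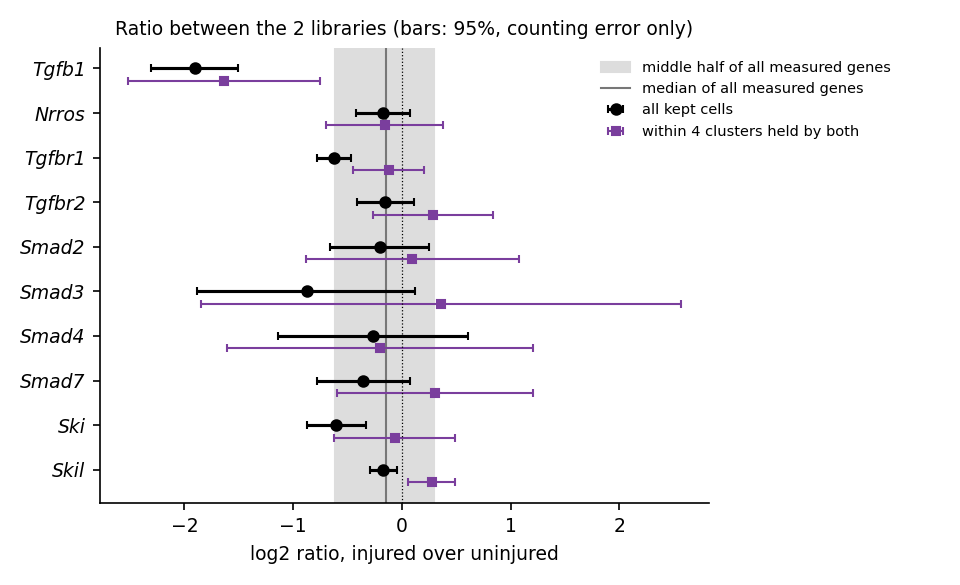
Log2 ratio of injured over uninjured for each gene, over all kept cells (black circles) and within the 4 clusters held by both libraries (purple squares), with 95% counting intervals. The grey band spans the quartiles of all measured genes. Tgfb1 lies left of the band in both sets, at −1.90 and −1.64, and Tgfbr1 moves from −0.63 to −0.12 within clusters.

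Of 14 other receptors and co-receptors, 7 were measured, with a median log2 ratio of −0.49. At 2-fold 0 were higher and 2 lower, beside 7.22% and 11.5% of all measured genes. Eng, the co-receptor endoglin, had 198 UMIs in uninjured and 75 in injured cells (log2 −1.97, −2.37 to −1.57), and 4 of the 198 lay in the endothelial-like cluster 13. Bambi, a decoy receptor that lacks a kinase, had a log2 ratio of −1.18 (−1.64 to −0.74). Nrp1, a surface protein that can bind TGF-beta, went the other way, with 209 and 472 UMIs (log2 0.61, 0.37 to 0.85). Tgfbr3, the co-receptor betaglycan, had 1 uninjured and 0 injured UMIs.

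The Smads were counted at low depth, so that only large differences could have been seen. Smad2, a receptor-activated Smad, had 74 and 95 UMIs, at 35.4 CPM (27.8 to 44.4) and 30.7 CPM (24.8 to 37.5), a log2 ratio of −0.20 (−0.66 to 0.25). Smad3 (ENSMUSG00000032402, chromosome 9 at 63646767 to 63757994), the other receptor-activated Smad of the TGF-beta arm, had 21 and 17 UMIs. Its levels of 10.0 CPM (6.21 to 15.3) and 5.49 CPM (3.20 to 8.79) overlapped, and its log2 ratio of −0.87 had an interval from −1.88 to 0.12. In thinned cells its shares were 1.16% and 1.23%. Smad4, the shared partner, had 22 and 27 UMIs, at 10.5 and 8.72 CPM (log2 −0.27, −1.14 to 0.61). Its thinned shares, 2.15% of uninjured and 0.705% of injured cells, rest on 13 and 4 cells, and before thinning the order was reversed, 3.17% and 4.68%. No thinned cell had UMIs of both Smad2 and Smad3, or of both Smad3 and Smad4, beside products of the shares of at most 0.0652%, so these pairs could not be seen at this depth.

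Of the 4 other Smads, 2 were measured, and 1 was at least 2-fold lower, beside 11.5% of all measured genes. Smad1, which carries bone morphogenetic protein signals, had 45 and 28 UMIs (log2 −1.25, −1.98 to −0.54). Smad5, of the same arm, had 23 and 30 UMIs (log2 −0.18, −1.01 to 0.67). Smad6, an inhibitor of that arm, had 6 and 10 UMIs.

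Among the inhibitors, Smad7, which is itself induced by TGF-beta, had 89 and 103 UMIs. Its levels of 42.5 CPM (34.1 to 52.3) and 33.3 CPM (27.2 to 40.4) overlapped (log2 −0.35, −0.78 to 0.07). Ski (ENSMUSG00000029050, chromosome 4 at 155154075 to 155222592), a nuclear repressor of Smads, had 229 and 223 UMIs, at 109 CPM (95.7 to 125) and 72.0 CPM (62.9 to 82.1). These intervals did not overlap, and the log2 ratio was −0.60 (−0.88 to −0.33). Thinned shares of Ski were 13.2% and 11.1%, a difference of −2.13 points with an interval from −5.88 to 1.64.

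Skil (ENSMUSG00000027660, chromosome 3 at 31095058 to 31122577), the close relative of Ski, had 887 and 1167 UMIs, the most of any member. Its levels were 424 CPM (396 to 453) and 377 CPM (356 to 399), which overlapped slightly, with a log2 ratio of −0.17 (−0.30 to −0.04). Its direction varied with depth. Between 2000 and 5000 UMIs Skil stood higher in injured cells, at 526 CPM against 419 CPM. Above 5000 UMIs it stood lower, at 290.1 CPM against 423 CPM. As for Tgfbr1, depth and kind of cell cannot be told apart in these bands. Before thinning, 2 or more UMIs were held by 274 of 577 injured and 221 of 695 uninjured cells, beside the deeper injured cells. Thinned shares were 38.1% in uninjured and 39.5% in injured cells.

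Of 27 modifiers of receptor and Smad signalling, 25 were measured, with a median log2 ratio of −0.07. At 2-fold 0 were higher and 3 lower, beside 7.22% and 11.5% of all measured genes. Tgif2, a corepressor of Smads, had 122 and 57 UMIs (log2 −1.66, −2.14 to −1.20). Its relative Tgif1 went the other way, at 407 CPM in uninjured and 621 CPM in injured cells (log2 0.61, 0.49 to 0.73). Ldlrad4, which keeps Smad2 and Smad3 from the receptor, had a log2 ratio of −1.34 (−1.81 to −0.88). Tab1, an adaptor of the kinase Map3k7 named because it is the third lower gene, had 32 and 23 UMIs (log2 −1.04, −1.88 to −0.22). Pmepa1, a TGF-beta-induced inhibitor of receptor signalling, had a log2 ratio of 0.13 (−0.13 to 0.39).

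Cells of both libraries were clustered together without the 10 members among the genes used, so their levels are not part of the clustering. The main microglia-like clusters are called by their leading genes. Cluster 1 (Gadd45g, Cd27 and Hbegf) held 231 uninjured and 19 injured cells, and cluster 4 (P2ry13, P2ry12 and Crybb1, genes of resting microglia) held 156 and 5. Cluster 2 (Ccl5, Il1a and Rrad) held 21 and 180, and cluster 5 (Spp1, Lpl and Igf1) held 1 and 141. Clusters 3 (Hspa1a, Junb and Socs3), 6 (Bmp2k, Kdm6b and Insig1) and 7 (Lepr, Ndufa6 and Gng10) held 139 and 35, 91 and 29, and 40 and 31 cells. Clusters 8 (Ifit3, Rsad2 and Ifit3b, interferon-induced genes), 9 (Birc5, Ube2c and Rrm2, genes of cell division) and 11 (Spp1, Apoc1 and Cst7) were almost wholly injured, with 53, 33 and 21 injured cells. Cluster 10 (H2-Eb1, H2-Aa and Cd74), with markers of border-associated macrophages, held 9 and 21.

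Tgfb1 was compared between libraries cluster by cluster. In uninjured cells its level was 106 CPM in cluster 1, 76.4 CPM in cluster 2, 77.9 CPM in cluster 3, 79.0 CPM in cluster 4, 117 CPM in cluster 6 and 45.0 CPM in cluster 7, with overlapping intervals. In injured cells it was 36.4 CPM in cluster 2, 39.6 CPM in cluster 3, 18.02 CPM in cluster 5, 17.99 CPM in cluster 6, 19.4 CPM in cluster 8, 20.1 CPM in cluster 9, 20.3 CPM in cluster 10 and 25.5 CPM in cluster 11. Cluster 7 had 0 injured Tgfb1 UMIs, and its level there could be up to 39.3 CPM. Within clusters 2, 3, 6 and 7, the only ones with at least 20 cells of each library, the injured level was lower in 4 of 4. The intervals of the libraries were apart in cluster 6 and overlapped in clusters 2, 3 and 7, where the library with fewer UMIs of the gene had 5, 5 and 0. The pooled log2 ratio was −1.64 (−2.52 to −0.75).

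**Figure D3:**
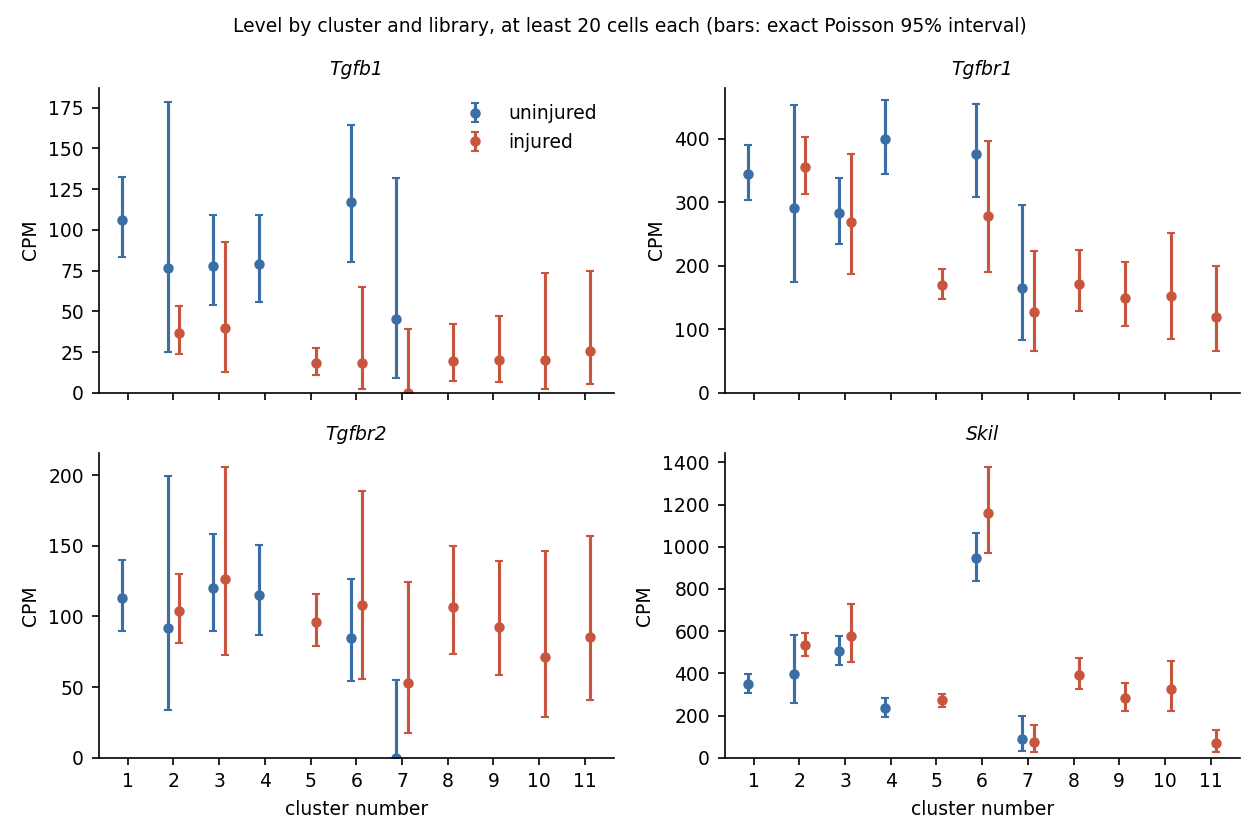
Levels of Tgfb1, Tgfbr1, Tgfbr2 and Skil in CPM by cluster number and library, for combinations with at least 20 cells, with exact Poisson 95% intervals. Injured Tgfb1 points lie at or below 39.6 CPM in every cluster, and Skil is highest in cluster 6 of both libraries.

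Tgfbr1 varied between clusters. In uninjured cells it ranged from 165 CPM in cluster 7 to 399 CPM (344 to 461) in cluster 4. In injured cells it was 356 CPM (314 to 403) in cluster 2, 269 CPM in cluster 3 and 279 CPM in cluster 6. It was lower in the injured clusters that have almost no uninjured cells: 170 CPM (147 to 195) in cluster 5, 171 CPM in cluster 8, 149 CPM in cluster 9 and 119 CPM in cluster 11. These cells were deep, with a median of 8268 UMIs in cluster 5 against 3671 in injured cluster 2. The pooled ratio within clusters 2, 3, 6 and 7 was −0.12 (−0.45 to 0.21), which includes 0. Tgfbr2 ranged from 85.1 to 127 CPM in clusters other than 7 and 10. Injured cluster 10 stood at 71.0 CPM (28.5 to 146). Uninjured cluster 7 was shallow, with a median of 1462.5 UMIs. The pooled ratio of Tgfbr2, which includes cluster 7, was 0.28 (−0.27 to 0.83), which overlaps that of Tgfbr1.

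Nrros stood between 107 and 131 CPM in uninjured clusters 1, 2, 3, 4 and 6. In injured cells it was 114 CPM in cluster 2, 150.4 CPM in cluster 3, 149 CPM in cluster 8 and 101 CPM in cluster 5, and lowest in cluster 7 at 32.0 CPM (6.59 to 93.4) and cluster 11 at 34.1 CPM (9.28 to 87.2). Its pooled ratio was −0.16 (−0.69 to 0.38). Smad7 was at 54.3 CPM in uninjured and 55.4 CPM in injured cluster 3 and at 36.0 CPM in injured cluster 5. All 4 Smad genes had 0 UMIs in the 40 uninjured cells of cluster 7, which held 66611 UMIs in all. A count of 0 there allows up to 55.4 CPM, above the uninjured level of each, so it shows no difference.

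Skil was highest in cluster 6, at 946 CPM (836 to 1067) in uninjured and 1160 CPM (969 to 1379) in injured cells. Clusters 2 and 3 stood at 398 and 505 CPM in uninjured and at 535 and 578 CPM in injured cells. Cluster 4 was lower, at 235 CPM (193 to 283), and injured cluster 5 stood at 272 CPM (243 to 304). Cluster 7 of both libraries, at 90.1 and 74.6 CPM, and injured cluster 11, at 68.1 CPM, were the lowest. The dissociation genes summed to 23383 CPM in uninjured and 13718 CPM in injured cluster 6. The sum was higher in cluster 3, at 27132 CPM in uninjured and 20176 CPM in injured cells, where Skil stood below its cluster 6 levels. It was also higher in uninjured cluster 1, at 26248 CPM, and in injured cluster 2, at 14273 CPM. The sum was 13692 CPM in uninjured cluster 4 and 9353 CPM in injured cluster 5, and at most 3153 CPM in cluster 7 and injured cluster 11. The part of this response in the Skil level was not tested. Within clusters Skil had a pooled ratio of 0.27 (0.06 to 0.49). Ski, by contrast, stood between 61.2 and 145 CPM in uninjured clusters other than 7, and its pooled ratio was −0.07 (−0.62 to 0.49).

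In cluster 12 (Ptn, Fabp7 and Pllp), left unnamed, and the endothelial-like cluster 13 (Cldn5, Fabp4 and Itm2a), Tgfb1, Nrros and both receptors had 0 UMIs. These clusters held 4 uninjured cells with a median of 1737 UMIs and 9 injured cells with a median of 3254. A count of 0 allows up to 490.2 CPM in these uninjured and 113 CPM in these injured cells at the 95% limit, so of the 4 genes only Tgfbr1, at 216 CPM over all injured cells, stood above the injured limit. Skil and Ski had 2 UMIs each there.

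Cells were also ranked within each library by the share of their UMIs from 22 listed genes and split into 3 groups of equal size. The genes were listed as needing TGF-beta in microglia, such as P2ry12, Tmem119 and Sall1. All kept cells were ranked, of which 13 uninjured and 30 injured lay outside the microglia-like clusters. Within 10% of the lower and of the upper cut lay 191 and 191 uninjured cells, and 121 and 152 injured cells. Tgfbr1 was higher in the group with the largest share, at 379 CPM against 282 CPM in the lowest group of uninjured cells (log2 0.42, 0.15 to 0.70) and 244 CPM against 187 CPM in injured cells (log2 0.39, 0.11 to 0.66). With cells thinned to 1500 UMIs the uninjured ratio was 0.47 (0.04 to 0.89), and the injured ratio of 0.30 (−0.19 to 0.80) included 0, with the highest injured level, 299.8 CPM, in the middle group. Tgfb1 had log2 ratios of 0.47 (−0.09 to 1.04) and 0.40 (−0.53 to 1.34), whose intervals include 0. Tgfbr2 was even, at −0.02 and 0.02. Skil was lower in the highest group of uninjured cells, at 281 CPM against 524 CPM (log2 −0.90, −1.16 to −0.64), and not in injured cells (0.08, −0.13 to 0.29). The 2 intervals of Skil did not overlap. The dissociation genes summed to 25650 CPM in the lowest and 16790 CPM in the highest group of uninjured cells, and to 11062 and 10308 CPM in injured cells, and their part in the Skil level was not tested.

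**Figure D4:**
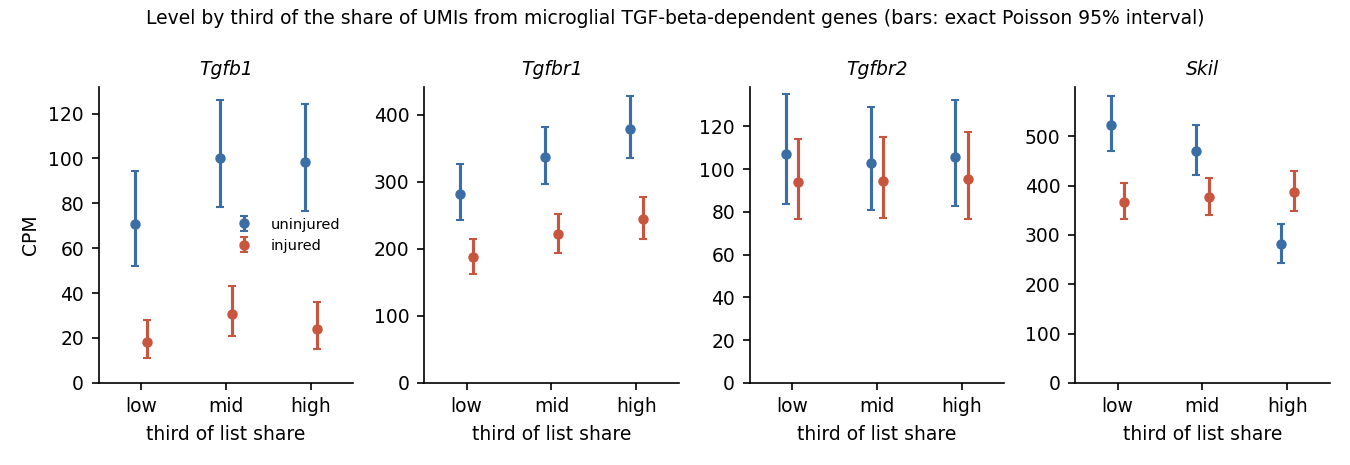
Levels of Tgfb1, Tgfbr1, Tgfbr2 and Skil in CPM in the low, middle and high groups of cells by share of UMIs from microglial TGF-beta-dependent genes, with exact Poisson 95% intervals. Uninjured Skil goes from 524 CPM in the low to 281 CPM in the high group, and Tgfbr1 has its highest point in the high group of both libraries, at 379 and 244 CPM before thinning.

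Target genes were listed in 2 sets, chosen with earlier results of these data known. The sets are therefore not independent of these data, and the difference between them was not tested. All 22 genes listed as needing TGF-beta in microglia were measured, with a median log2 ratio of −0.86. At 2-fold 0 were higher and 9 lower, beside 7.22% higher and 11.5% lower among all measured genes. Slc2a5, a fructose transporter, went from 260.4 to 48.1 CPM (log2 −2.44, −2.71 to −2.17). Crybb1, a crystallin gene of mature microglia, had a log2 ratio of −2.28 (−2.51 to −2.06), and Adgrg1, an adhesion receptor, had −2.31 (−2.58 to −2.05). Not all genes of the list stood lower. Fcrls had a log2 ratio of 0.35 (0.29 to 0.41) and Gas6 0.27 (−0.10 to 0.64). Olfml3, at −0.12, and C1qa, at −0.16, were near the median of all measured genes. Fcrls, Gas6, Olfml3 and C1qa were named after their values were seen. Of 19 general TGF-beta targets, 13 were measured, with 4 higher and 1 lower and a median of 0.54. Fn1, the matrix protein fibronectin, had 12 and 522 UMIs (log2 4.88, 4.06 to 5.84), and 7 of the 12 uninjured UMIs lay outside the microglia-like cells. Angptl4, a lipase inhibitor, had 1 and 50 UMIs (log2 5.08, 2.54 to 10.4), and 27 of the 50 lay in 10 cells. Bhlhe40, a transcription factor, had a log2 ratio of 2.06 (1.56 to 2.59). The lower gene was Junb, a subunit of AP-1, at −1.08 (−1.12 to −1.04), named after its value was seen. Junb also stands in the dissociation list, in which 11 of 25 measured genes stood lower by 2-fold or more and 0 higher (median −0.97). Among these Jun had a log2 ratio of −2.05, Hspa1a −1.74 and Socs3 −1.62, and the part of handling in the lists was not tested.

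**Figure D5:**
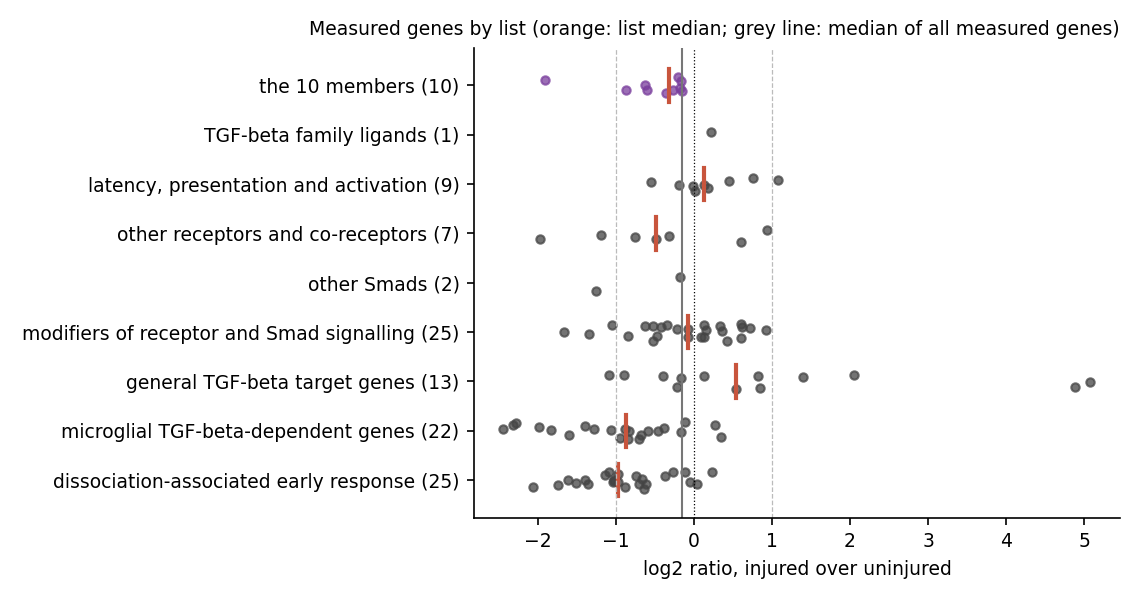
Log2 ratio of injured over uninjured for every measured gene of each list, with list medians in orange and the median of all measured genes as a grey line. The 22 microglial TGF-beta-dependent genes have a median of −0.86 and the 13 general targets 0.54, while the 10 members have −0.31.

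Within single cells the members were rarely caught together. After thinning to 1500 UMIs the median cell of each library had a UMI of 1 member, and 114 of 604 uninjured cells (18.9%) and 155 of 567 injured cells (27.3%) had none. Tgfb1 and Tgfbr1 were both seen in 4.80% of uninjured and 1.94% of injured cells, beside products of the separate shares of 4.45% and 1.43%. Tgfb1 and Nrros were both seen in 2.15% and 0.353%, beside 1.82% and 0.655%. The 95% intervals of these shares include the products, and the genes share the depth of a cell.

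Over the 15 combinations of cluster and library with at least 20 cells, the genes of at least 200 UMIs most like Tgfb1 were Hmha1 (Pearson r 0.90), Saraf (0.89) and Tm6sf1 (0.89). Those most like Tgfbr1 were Prkcd (0.93), Fam105a (0.92) and Eif4a2 (0.91), and those most like Tgfbr2 were Elk3 (0.95), Tmed5 (0.95) and Fcf1 (0.93). These are descriptions over 2850 genes, and the 15 points share 2 libraries and differ in depth.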

How the data were processed

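The authors deposited raw UMI counts for each gene in each barcode, from 10x Chromium 3′ version 2 libraries per the labels' protocols. Cell Ranger 2.0.1, STAR, Seurat 2.1.0 and the build GRCm38.p5 (mm10) are named in the submitters' processing notes. Roles, annotation and any barcode filter were not given in the sources used here. These 3′ counts were not divided by length, so levels are compared between libraries and cells and not between genes.

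A limit of 10% mitochondrial UMIs removed 10 uninjured and 3 injured barcodes, and a minimum of 200 genes removed 0. Scatter gates in the sort were set against doublets, per the labels' protocols, which does not remove droplets that took up 2 cells. No doublet caller was run, and cells with Y-linked and Xist UMIs together were left out in an alternative added after the data were seen. CPM values have exact Poisson and shares of cells exact Clopper-Pearson 95% intervals. Ratios have an interval taken from the injured share of UMIs, differences in share a Newcombe interval, and ratios within clusters a Mantel-Haenszel one. A gene with 0 UMIs was set to a floor of 3 counts. PCR duplicates are removed by the UMIs, and the intervals cover counting error only. The ratio script was tested on simulated counts.

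Clusters were made with Leiden (leidenalg 0.10.2, scikit-learn 1.9.0) from 2000 variable genes, 20 principal components and 15 neighbours at resolution 1.2, with 0.6 and 1.8 as alternatives. These resolutions and the sum of 10000 CPM over microglial markers that makes a cluster microglia-like were set after cluster markers were seen. The within-cluster ratios, the differences in share and the depth band were added after the data were seen. Members and lists were chosen with earlier results of these data known. The text names all 10 members, from each list up to 3 measured genes whose interval bound nearest 0 lies farthest from 0, 11 further genes fixed by name, and for Tgfb1, Tgfbr1 and Tgfbr2 the 3 genes with the highest correlation of log2(CPM + 10). edgeR 4.0.16 and DESeq2 1.42.0 were used for scaling factors only. Values of 1 gene of the lists are not reported here.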

Additional observations from a re-analysis of the deposited data

How the results depend on the processing

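Tgfb1 stayed at least 2-fold lower in injured cells under all 11 other settings of its ratio, from −2.04 to −1.42 (thinned to 1500 UMIs). TMM and DESeq2 factors shifted all log2 ratios by 0.145 and 0.150, and the Skil ratio was then −0.024 and −0.019. It was −0.016 with each cell weighted equally, 0.15 in thinned cells and 0.33 in cells of 2000 to 5000 UMIs, so its direction turned. The Tgfbr1 ratio was −0.43 with cells weighted equally, −0.30 thinned, −0.46 in cells with Y-linked UMIs alone and −0.12 in cells of 2000 to 5000 UMIs. Thinned cells gave Smad3 0.28, Smad4 −1.61 and Ski −0.29, and cells with Y-linked UMIs alone gave Smad3 0.24. At 1.5-fold, 4 members were lower in place of 1, and from 1 to 4 under the other settings.

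Of the 57 measured genes in the first 6 lists, 5 were at least 2-fold higher and 7 lower, beside 7.22% and 11.5% of all measured genes. With TMM or DESeq2 factors 7 were higher and 5 lower. The higher count became 9 of 50 genes without the 10 cells with most UMIs of a gene, and 12 of 81 with no minimum of UMIs. The 12 include Tgfb3, Inhba and Tgfbr3, which had 1 uninjured and 0 injured UMIs. These genes count as higher only because a 0 is set to the floor of 3 counts. The lower count became 13 of 81 with no minimum and 4 of 53 in cells of 2000 to 5000 UMIs. In that band the median of the microglial TGF-beta-dependent list was −0.62. Among the 13 are Bmp4, Gdf11 and Cd109, with 0 uninjured UMIs and 2, 1 and 1 injured UMIs. They count as lower through the same floor. The shares over all genes past 2-fold under these settings were not computed. The cause of the other changes was not tested.

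Without thinning, the differences in share (injured minus uninjured, in percentage points) were 8.94 for Nrros, 4.01 for Tgfbr1, 11.7 for Tgfbr2, 5.06 for Smad2, 1.51 for Smad4, 4.55 for Smad7, 6.94 for Ski and 11.9 for Skil, beside the deeper injured cells. At 2500 UMIs the Tgfb1 difference was −14.3. For the ranking by list share, a split into 2 groups gave uninjured Skil −0.59, and thinned cells gave injured Nrros −1 and injured Skil 0.29. The pooled ratio within clusters was −1.25 and −1.20 for Tgfb1, 0.10 and −0.06 for Tgfbr1 and 0.18 and 0.36 for Skil at the lower and higher resolution. The levels of single clusters were not compared between resolutions. No paired analysis was possible because each group has 1 library, which also leaves no library to leave out.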
